A study of Mus musculus with 9 samples.

Results

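Layer B was compared with layer C of the mouse piriform cortex, using the 3 samples labelled layer B and the 3 labelled layer C, which are 6 of the 9 samples of the series. RNA was taken from all 6 in the same way. Layers were cut out of fresh-frozen brain sections by laser capture, the RNA was amplified with the Ovation RNA-Seq system, and libraries that do not keep the strand were sequenced. All groups were C57BL/6 mice of wild type genotype, labelled as 8 weeks old (the study's methods give another age), with no treatment that differs between layers. The labels give the letters A, B and C, and no source used here says which letter is layer I, II or III. Directions that the study lists for some genes, given below, match A, B and C as layers I, II and III. The letters are kept. No source says that replicates came from separate animals, so p-values measure only the spread between these samples, which may be technical.

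The piriform cortex is the largest area of the olfactory cortex and receives direct input from the olfactory bulb. Its superficial layer is mostly neuropil, the cell bodies of its principal neurons crowd into the layer beneath, and interneurons become a larger part of the cells further down. Inhibitory interneurons make GABA and carry peptides such as somatostatin, and oligodendrocytes wrap axons in myelin. Captured tissue holds every cell type of its layer, so fewer cells of a type and less RNA per cell cannot be told apart.

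Before the layers were compared, the samples were compared with each other. Layer B replicate 3 stood apart from its mates. Of 8135 genes with a mean of at least 5 normalized CPM (CPM, counts scaled to a common library size by edgeR's TMM method) over the 6 samples, 0.0983% differed more than 2-fold between layer B replicates 1 and 2. The share was 21.3% between replicates 1 and 3 and 24.3% between replicates 2 and 3. Pairs of layer C samples differed for 3.55% to 16.4% of these genes. Across genes, which are not independent replicates, log2 levels of layer B replicates 1 and 2 correlated at 0.988. Replicate 3 correlated with them at 0.933 and 0.923. With layer C replicates 1 to 3, layer B replicate 3 correlated at 0.946, 0.923 and 0.954. The values with layer C were 0.971, 0.942 and 0.957 for layer B replicate 1 and 0.970, 0.944 and 0.952 for layer B replicate 2. Layer B replicates 1 and 2 differed by more than counting error (chi-square of 32.3 per degree of freedom) and were counted as 2 samples, although this covers counting error only and separate amplifications of 1 RNA could differ as much. Total counts were 27377090, 27185960 and 44224318 in layer B and 33357323, 23104306 and 76471683 in layer C. The 2 mitochondrial ribosomal RNAs took 12.8%, 18.2% and 28.1% of counts in layer B and 29.8%, 57.1% and 20.5% in layer C. The layers overlapped in this share, with a mean of 19.7% ± 7.78 (SD, n = 3) against 35.8% ± 19.0 (SD, n = 3) and p = 0.2 in a two-sided exact permutation test, which cannot go below 0.1 with 3 against 3. Layer C replicate 2 was left with 9477078 counts outside the mitochondrial genome, the fewest of the 6, and low genes are least precise there.

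Few genes separated the layers beyond the spread between samples. Of 15184 genes tested, each by its most abundant transcript, 4 (0.0263%) had an adjusted p under 0.05 by edgeR (quasi-likelihood F-test, p adjusted after Benjamini and Hochberg). Endou and Tex15 were higher in layer B, and Grik3 and Chrna4 were higher in layer C. At an unadjusted p under 0.05 there were 192 genes higher in layer B (1.26%) and 692 higher in layer C (4.56%). With the same samples DESeq2 called 90 genes and limma voom with sample weights called 990. With only the layer B and layer C samples in the edgeR fit, in place of all 9, no gene was called and 857 had an unadjusted p under 0.05. Leaving out layer B replicate 1 or 2, or layer C replicate 2 or 3, left no call in edgeR's test, and leaving out layer C replicate 1 left 1.

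The 3 values of one layer all exceeded the 3 of the other for 1631 genes. Layer B was the higher for 728 genes (4.79% of those tested) and layer C for 903 (5.95%). The differences were larger on the layer C side. The median log2 fold change was 0.65 (quartiles 0.46 and 1.02) for genes higher in layer B and -0.94 (quartiles -1.29 and -0.64) for genes higher in layer C, against 0.05 over all genes tested. More than 2-fold differences were found for 189 (26.0%) of the former and 400 (44.3%) of the latter, and more than 4-fold differences for 24 and 52. All fold changes are layer B minus layer C on the log2 scale, so a negative value is higher in layer C.

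**Figure D1:**
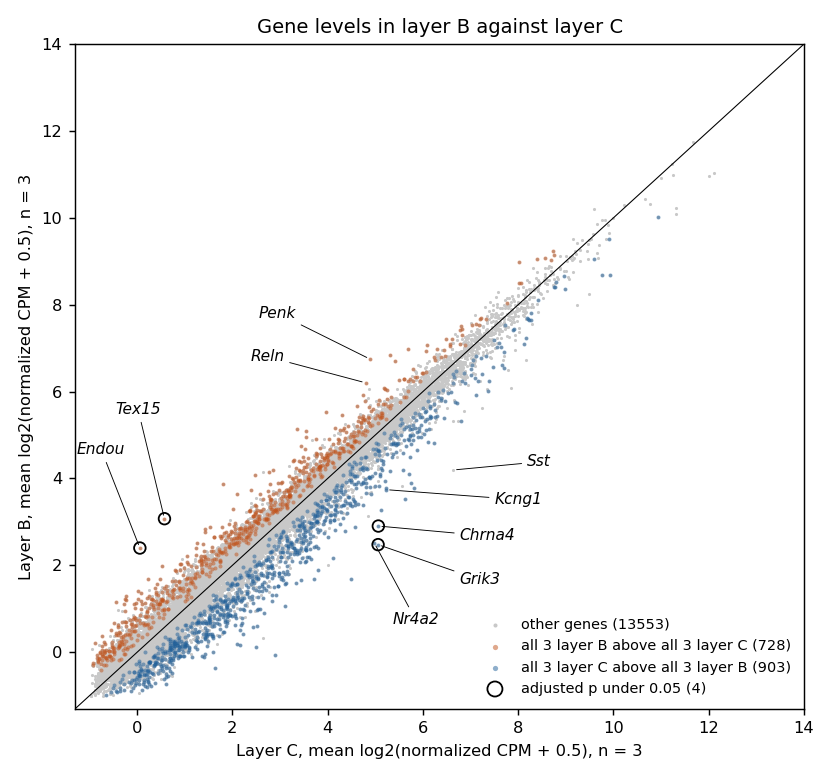
Each point is 1 of 15184 genes, with its mean log2(normalized CPM + 0.5) over the 3 layer C samples on the horizontal axis and over the 3 layer B samples on the vertical axis. Orange and blue points are the 728 and 903 genes whose layers do not overlap, and rings mark the 4 genes with an adjusted p under 0.05, which lie far from the line of equal levels at low to moderate levels.

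Endou, which encodes an endoribonuclease, had 5.48, 4.97 and 3.99 normalized CPM in layer B replicates 1 to 3 and 0.478, 0.505 and 0.651 in layer C. All layer B samples were several times above all layer C samples, although layer C rested on 12, 5 and 48 counts. The log2 fold change was 3.10 ± 0.44 (SE), with an adjusted p of 0.0178 in edgeR's test. The gene lies on chromosome 15, from 97711015 to 97731339 on the minus strand of GRCm38, the assembly also called mm10. Tex15, known for its role in the male germ line, had 9.61, 10.4 and 4.91 normalized CPM in layer B and 0.876, 0.909 and 1.21 in layer C. Replicate 3 was the lowest of layer B and still above every layer C sample. Its log2 fold change was 3.03 ± 0.43 (SE), with an adjusted p of 0.0178 in edgeR's test. It lies on chromosome 8, from 33516738 to 33585582 on the plus strand.

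The other genes that led the layer B side did not overlap between layers and missed the adjusted threshold. Penk, the precursor of the enkephalin opioid peptides, had 101, 73.2 and 166 normalized CPM in layer B and 32.6, 26.4 and 28.8 in layer C. Here replicate 3 was the highest layer B sample, and the log2 fold change was 1.95 ± 0.38 (SE), with an adjusted p of 0.219 in edgeR's test. Fras1, an extracellular matrix protein gene, had 56.3, 63.7 and 26.1 against 14.8, 15.8 and 14.6. Reln, which encodes the secreted protein reelin that guides the layering of neurons, had 102, 92.0 and 41.7 against 21.0, 27.9 and 34.7. Replicate 3 lay closer to layer C than to its mates for both genes. Lypd1, whose protein binds nicotinic acetylcholine receptors, had 122, 134 and 120 against 68.5, 45.7 and 42.5, and replicate 3 lay beside its mates. Of the Lypd1 transcript, 18.6% overlaps exons of Gpr39 on the other strand, and reads from the 2 genes cannot be told apart there. The remaining 6 of the 12 genes with the smallest p on this side were Pcdh20, Crtac1, Plk5, Chrdl1, Lrrc55 and Rprm. Their log2 fold changes ran from 1.41 to 2.12.

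Both genes called on the layer C side encode receptor subunits. Grik3, a kainate receptor subunit for glutamate, had 4.32, 5.75 and 5.23 normalized CPM in layer B and 22.0, 25.9 and 61.9 in layer C. Layer B was uniform and layer C was spread, with replicate 3 the highest. The log2 fold change was -2.85 ± 0.40 (SE), with an adjusted p of 0.0178 in edgeR's test. The gene lies on chromosome 4, from 125490700 to 125714173 on the plus strand. Chrna4, a nicotinic acetylcholine receptor subunit, had 8.34, 8.67 and 4.69 in layer B and 35.0, 28.9 and 35.4 in layer C. Its layer B replicate 3 was the farthest of the 3 from layer C. The log2 fold change was -2.20 ± 0.32 (SE), with an adjusted p of 0.0178 in edgeR's test. It lies on chromosome 2, from 181018380 to 181043546 on the minus strand.

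None of the next genes on that side passed the adjusted threshold. Nr4a2, a nuclear receptor and a marker of neocortical subplate and claustrum, had 5.21, 3.94 and 6.93 normalized CPM in layer B and 14.1, 22.6 and 91.9 in layer C. Layer C replicate 3 was far above the other two, and the log2 fold change was -3.00 ± 0.59 (SE), with an adjusted p of 0.219 in edgeR's test. Without layer C replicate 3 it was -1.77. Kcng1, a modifier subunit of voltage-gated potassium channels, had 14.3, 15.0 and 9.95 in layer B and 46.3, 39.3 and 27.7 in layer C. Adra1a, an adrenaline receptor, had 1.89, 1.97 and 2.19 against 5.10, 8.58 and 7.81. Rxfp1, the receptor of the peptide hormone relaxin, had 0.309, 0.616 and 0.944 against 4.94, 6.97 and 3.97. Layers did not overlap for any of these genes. The other 6 of the 12 with the smallest p were Etl4, Gm5424, Cd180, Elfn1, 2610203C22Rik and Zfp488, with log2 fold changes from -2.35 to -1.43. Gm5424 resembles the coding gene Ass1, so its reads may be shared.

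**Figure D2:**
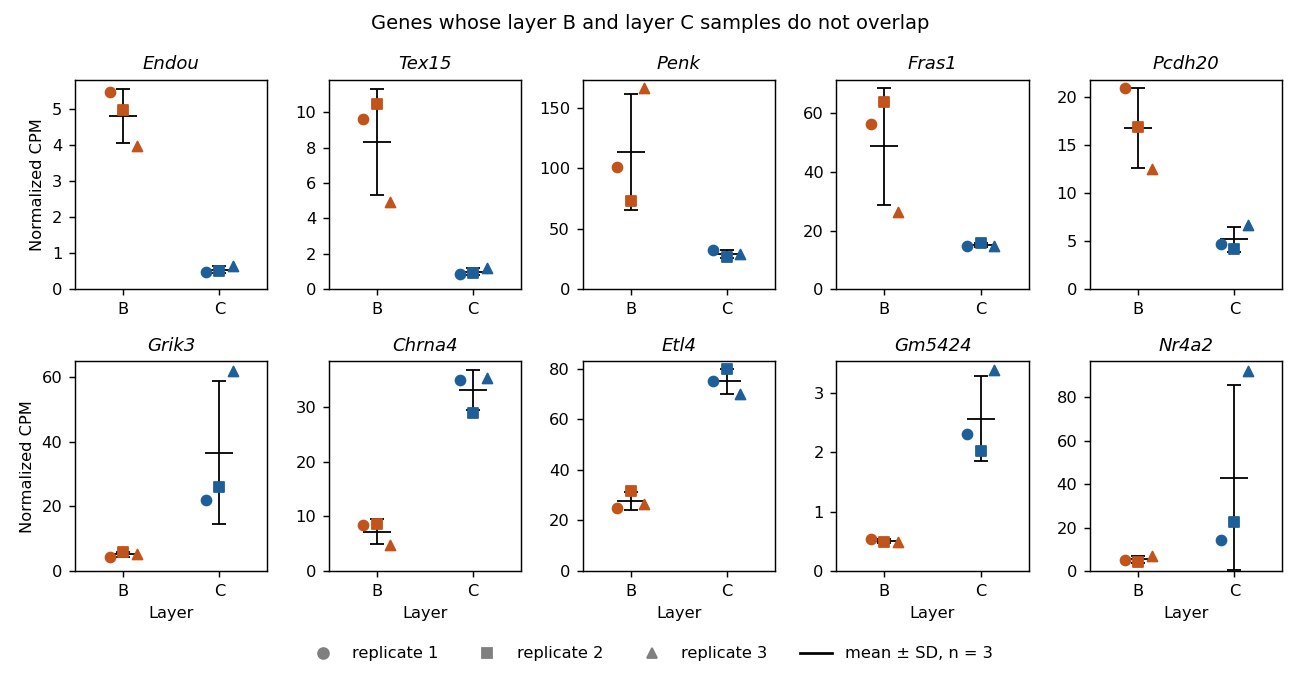
Normalized CPM of the 5 genes with the smallest p in each direction among genes whose layers do not overlap, higher in layer B in the top row and in layer C in the bottom row. Circles, squares and triangles are replicates 1, 2 and 3, and bars give the mean ± SD (n = 3). Layer B replicate 3 lies towards layer C for Tex15 and Fras1 and away from it for Penk and Chrna4.

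Of 35 markers of GABAergic interneurons tested, 27 had a negative log2 fold change. The layer C values were all above the layer B values for 14 and all below for none, beside 5.95% and 4.79% of all genes. The adjusted edgeR test called none of them, and 14 had an unadjusted p under 0.05, all higher in layer C, beside 4.56% of all genes. Without layer B replicate 3 it called 4, beside 0.231% of all genes. The median log2 fold change was -0.73 over the list, beside 0.05 over all genes. Lhx6, a transcription factor of interneurons from the medial ganglionic eminence, had 3.36, 3.33 and 5.56 normalized CPM in layer B and 12.4, 23.1 and 16.6 in layer C. Dlx1 and Elfn1 also did not overlap, with log2 fold changes of -1.37 and -1.82. The genes for GABA synthesis differed in this respect: Gad2 had 51.7, 46.3 and 109 against 127, 153 and 230, while Gad1 had 22.5, 21.9 and 101 against 42.1, 45.2 and 65.9. For Gad1, layer B replicate 3 was the highest of all 6 samples. Gad1 was named after its values were seen.

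Of 23 myelin and oligodendrocyte genes tested, 21 had a negative log2 fold change, and the median was -1.53. For 7 the layers did not overlap, all higher in layer C, beside 5.95% of all genes. The edgeR test called none of them with all samples. Without layer B replicate 3 it called 5, beside 0.231% of all genes. With all samples 17 had an unadjusted p under 0.05, beside 4.56% of all genes. Mal, a membrane protein of myelin, had 6.52, 7.77 and 26.3 normalized CPM in layer B and 33.8, 40.1 and 85.9 in layer C. Olig2, a transcription factor of the lineage, had 1.47, 2.06 and 4.64 against 5.46, 14.7 and 6.56. The summed level of the list was 124, 134 and 448 in layer B and 349, 381 and 1098 in layer C, so the sums overlapped. In layer B, replicate 3 was above both mates for 22 of the 23 genes, beside 6670 of all 15184 genes. All 7 oligodendrocyte precursor genes tested did not overlap and were higher in layer C, with a median of -1.16, and here replicate 3 was above both mates for 1. Cspg4, the NG2 proteoglycan of precursors, had 2.16, 3.16 and 2.97 against 6.09, 9.39 and 7.88. Pdgfra, their growth factor receptor, had 10.8, 9.53 and 11.3 against 19.3, 24.7 and 26.9.

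The other non-neuronal lists had negative medians and no adjusted call. Of 18 astrocyte genes 4 did not overlap, of 14 microglia genes 4, and of 18 endothelial and mural genes 5, each higher in layer C, beside 5.95% of all genes. The median log2 fold changes were -0.59, -0.82 and -0.85, and -1.0, -1.21 and -1.28 without layer B replicate 3. That sample was above both mates for 16, 12 and 14 of these genes, beside 6670 of all 15184 genes. Aqp4, the water channel of astrocyte endfeet, had 22.1, 20.8 and 43.3 normalized CPM in layer B and 45.4, 70.2 and 46.6 in layer C. Csf1r, the growth factor receptor of microglia, had 9.42, 10.8 and 14.2 against 19.0, 19.6 and 26.2, with 18.6% of its transcript shared with Hmgxb3. Flt1, a receptor of vascular growth factor in endothelium, had 2.97, 4.85 and 4.64 against 8.40, 8.08 and 9.09. Layers did not overlap for these 3 genes. None of 13 meningeal fibroblast genes separated the layers (median -0.86), and their summed level stayed between 12.4 and 70.5. The part of these cell types in the differences between layers was not tested.

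Of 18 markers of excitatory neurons tested, 13 had a positive log2 fold change and 5 a negative one, beside 8294 positive of all 15184 genes. Without overlap, 5 were higher in layer B and 3 in layer C, beside 4.79% and 5.95% of all genes. The median log2 fold change was 0.35. Slc30a3, the zinc transporter of glutamatergic vesicles, had 122, 124 and 96.8 normalized CPM in layer B and 51.5, 25 and 45.9 in layer C. Slc17a6, the vesicular glutamate transporter VGLUT2, had 11.9, 8.75 and 43.1 against 46.2, 64.2 and 47.6, and was called without layer B replicate 3 (adjusted p of 0.0484 in edgeR's test). Neurod6, a transcription factor of cortical projection neurons, had 3.71, 3.04 and 5.61 against 7.65, 6.46 and 22.8, with a log2 fold change of -1.59, or -0.78 without layer C replicate 3. The transporters Slc30a3 and Slc17a6 both mark glutamatergic neurons and had opposite directions.

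Of 19 genes known from deep neocortical layers and the subplate, 15 had a negative log2 fold change. Without overlap, 8 were higher in layer C and 2 in layer B, beside 5.95% and 4.79% of all genes. The median log2 fold change was -1.20. The edgeR test called 3 of them without layer B replicate 3, beside 0.231% of all genes, and none with all samples. Oprk1, the kappa opioid receptor, had 0.193, 0.0822 and 1.65 normalized CPM in layer B and 3.98, 4.44 and 17.8 in layer C. Its layer B replicates 1 and 2 rested on 5 and 2 counts. Rprm, a regulator of the cell cycle, went the other way, with 27.9, 28.3 and 54.3 against 13.7, 7.88 and 8.64. Of 17 genes of upper neocortical layers 1 was higher in layer B and 2 in layer C without overlap, near the shares of all genes, with a median of 0.15. Among the latter, Rorb had 27.0, 24.2 and 42.5 against 53.8, 66.0 and 58.1. Of 8 claustrum and endopiriform genes 2 did not overlap, both higher in layer C (median -0.51). These were Nr4a2 and Oprk1, which are also counted in the deep-layer and subplate list. Of 14 striatal genes 2 were higher in each layer (median -0.01), among them Foxp1, with 11.8, 13.8 and 14.6 against 23.5, 20.5 and 27.0.

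A further list held 25 genes that the study names as markers or as candidates for a layer, most but not all of them examined by histology, and it does not hold every such gene. The study chose many of them on these samples, so their directions are not independent evidence. Of the 24 tested, 4 did not overlap with layer B higher and 5 with layer C higher, beside 4.79% and 5.95% of all genes. None had an adjusted p under 0.05, and the median log2 fold change was -0.49. Values are given for those with the smallest p, a choice made after the values were seen. Besides Reln, Kcng1, Lhx6, Rorb and Neurod6 above, Fezf2, a transcription factor of subcortical projection neurons, had 0.116, 0.493 and 1.86 normalized CPM in layer B and 2.07, 3.33 and 8.49 in layer C. It was called without layer B replicate 3 (adjusted p of 0.0484 in edgeR's test), although layer B then rested on 3 and 12 counts. By histology the study found Fezf2 in piriform layer IIa, in cells that mostly held Reelin protein too. Here the RNA of Reln was higher in layer B and that of Fezf2 in layer C. The reason was not tested. Cartpt, the precursor of CART peptides, had 4.94, 4.44 and 12.9 against 2.63, 1.31 and 2.90, and its log2 fold change of 1.67 was 1.00 without layer B replicate 3. Lmo3, a transcriptional cofactor, had 604, 430 and 490 against 289, 318 and 186. Layers did not overlap for Fezf2, Cartpt and Lmo3. Barhl2, a transcription factor, had 0.154, 0.246 and 3.48 against 8.24, 7.98 and 2.83, and layer B replicate 3 lay above layer C replicate 3. Its layer B replicates 1 and 2 rested on 4 and 6 counts. Sema3a and Otx1 overlapped too. The study lists Lrp4 as higher in layer I than II, Reln in layer II than III, and Lhx6 in layer III than II. Mean normalized CPM in layers A, B and C was 59.6, 3.90 and 5.25 for Lrp4 and 149, 78.5 and 27.9 for Reln. For Lhx6 it was 3.55, 4.08 and 17.4. These directions match A, B and C as layers I, II and III. With that key the means of Foxp2 and Btbd3 run against the directions the study lists.

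**Figure D3:**
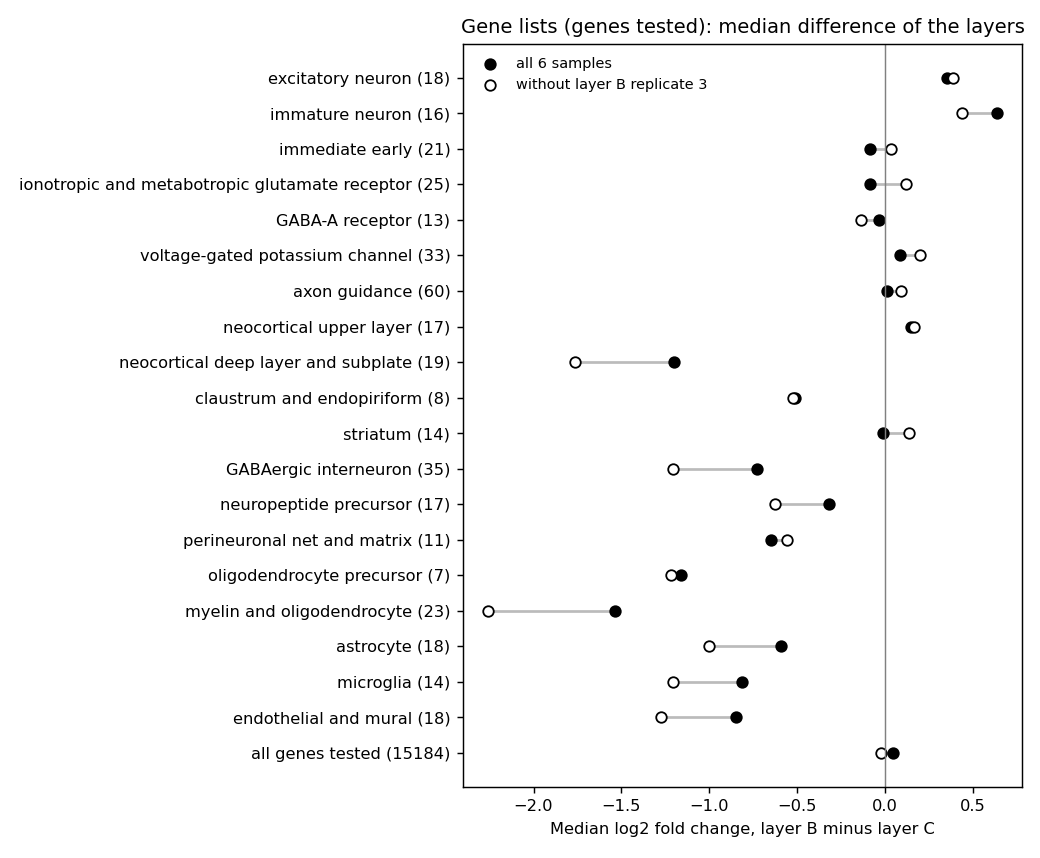
Median log2 fold change of layer B minus layer C for 19 gene lists and for all genes tested, with the number of genes tested in parentheses. Filled points use all 6 samples and open points leave out layer B replicate 3, which moves the myelin list from -1.53 to -2.26 and the interneuron list from -0.73 to -1.21.

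Among ligands, guidance molecules and channels the layers differed gene by gene. Of 17 neuropeptide precursors 5 did not overlap, all higher in layer B, though the median was -0.32. Layer B replicate 3 was above both mates for all 17, beside 6670 of all 15184 genes, and without it the median was -0.62. Besides Penk and Cartpt these were Crh, Pdyn and Tac2, the last named after its values were seen. The log2 fold change of Crh was 2.46 ± 0.96 (SE) with replicate 3 and 0.94 without it. Crh rested on 27, 18 and 217 counts in layer B and 14, 0 and 49 in layer C. Of 60 axon guidance genes, 3 were higher in layer B and 9 in layer C without overlap (median 0.01). Ntng1, a netrin-related adhesion protein, had 22.3, 18.0 and 12.7 normalized CPM in layer B and 5.86, 5.86 and 7.40 in layer C. Sema3e, a secreted semaphorin, had 0.849, 1.07 and 2.00 against 2.23, 4.34 and 6.82. Of 25 glutamate receptor genes, 1 was higher in layer B and 8 in layer C without overlap (median -0.08). Besides Grik3, which passed the adjusted test, Grin3a, an NMDA receptor subunit, had 15.2, 23.4 and 16.1 against 35.7, 50.5 and 59.1. Of 33 voltage-gated potassium channel genes, 5 were higher in layer B and 3 in layer C (median 0.09). Of 13 GABA-A receptor genes 1 was higher in layer C without overlap (median -0.04). Over all genes these shares were 4.79% higher in layer B and 5.95% higher in layer C, and several counts here are near them.

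Of 16 genes of immature neurons 6 did not overlap, all higher in layer B, the median log2 fold change being 0.64, with no adjusted call. St8sia2, which adds polysialic acid to NCAM, had 1.77, 2.92 and 1.73 normalized CPM in layer B and 0.239, 0.606 and 0.976 in layer C. Ncam1 and St8sia4, the gene of a second polysialyltransferase, had log2 fold changes of -0.90 and -0.92, with an unadjusted p under 0.05. Dcx, a microtubule protein of migrating neurons, had 56.4, 48.6 and 40.0 against 27.8, 36.5 and 27.9, and Dcx and St8sia4 were named after their values were seen. Of 11 genes of the perineuronal net and matrix 5 were higher in layer C without overlap (median -0.65), beside 5.95% of all genes. Among these 5, Vcan and Ptprz1 are also counted in the oligodendrocyte precursor list. Hapln1, a link protein and another of the 5, had 5.56, 5.05 and 10.4 against 10.7, 17.0 and 13.0. Without overlap, 1 of 21 immediate early genes (median -0.08) and 2 of 15 calcium-binding protein genes (median -0.09) were higher in layer B, beside 4.79% of all genes. No gene separated the layers among 12 neurofilament genes, 4 nuclear long noncoding RNAs, 4 genes of the sex chromosomes and 2 haemoglobin genes, with medians of -0.18, -0.44, 0.11 and -0.58.

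Layer B replicate 3 decided much of what could be called. Without it, 35 genes (0.231% of those tested) had an adjusted p under 0.05 in edgeR's test, 6 higher in layer B and 29 higher in layer C. The 4 genes called with all samples were among them. Genes without overlap rose in number to 4855 from 1631, so that 33.6% of the genes separated by the other 5 samples stayed separated once replicate 3 was included. The share kept was 71.5% for layer B replicate 1, 62.3% for layer B replicate 2, and 63.7%, 55.6% and 46.2% for layer C replicates 1 to 3. A comparison of 2 against 3 samples separates more genes by its size alone, and the share for replicate 3 was the lowest of the 6. The samples left were chosen with this in view, and the 35 genes do not replace the 4.

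Somatostatin depended strongly on replicate 3. Sst, the peptide of a main class of interneurons, had 7.49 and 7.60 normalized CPM in layer B replicates 1 and 2, 94.5 in replicate 3, and 79.7, 114 and 106 in layer C. Replicate 3 lay within the range of layer C. The log2 fold change was -1.45 ± 0.71 (SE) with all samples, with an adjusted p of 0.909 in edgeR's test. Without replicate 3 it was -3.72 ± 0.39 (SE), with an adjusted p of 0.000995 in the same test. Crhbp, a binding protein of corticotropin-releasing hormone, had 2.51, 1.40 and 11.2 in layer B and 11.8, 10.6 and 29.7 in layer C. Gfra2, a receptor for the growth factor neurturin, had 5.60, 4.03 and 24.0 against 21.6, 32.8 and 32.0. Replicate 3 fell inside the layer C range for both.

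For other genes replicate 3 lay between the layers. Nxph1, a secreted ligand of neurexins, had 9.76, 8.05 and 28.9 normalized CPM in layer B and 51.9, 67.2 and 49.9 in layer C, and its log2 fold change went from -1.85 to -2.66 without replicate 3. Reln went from 1.49 to 1.8, with an adjusted p of 0.241 with all samples and 0.0199 without replicate 3 in edgeR's test. Of the 35 genes, replicate 3 lay on the layer B side of all layer C values for 24, within the range of layer C for 10 and beyond it for 1. It was nearer to the layer C mean than to the mean of its mates for 26. Vxn shares 13.9% of its transcript with 2610203C22Rik on the other strand, and reads there cannot be assigned to either.

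**Figure D4:**
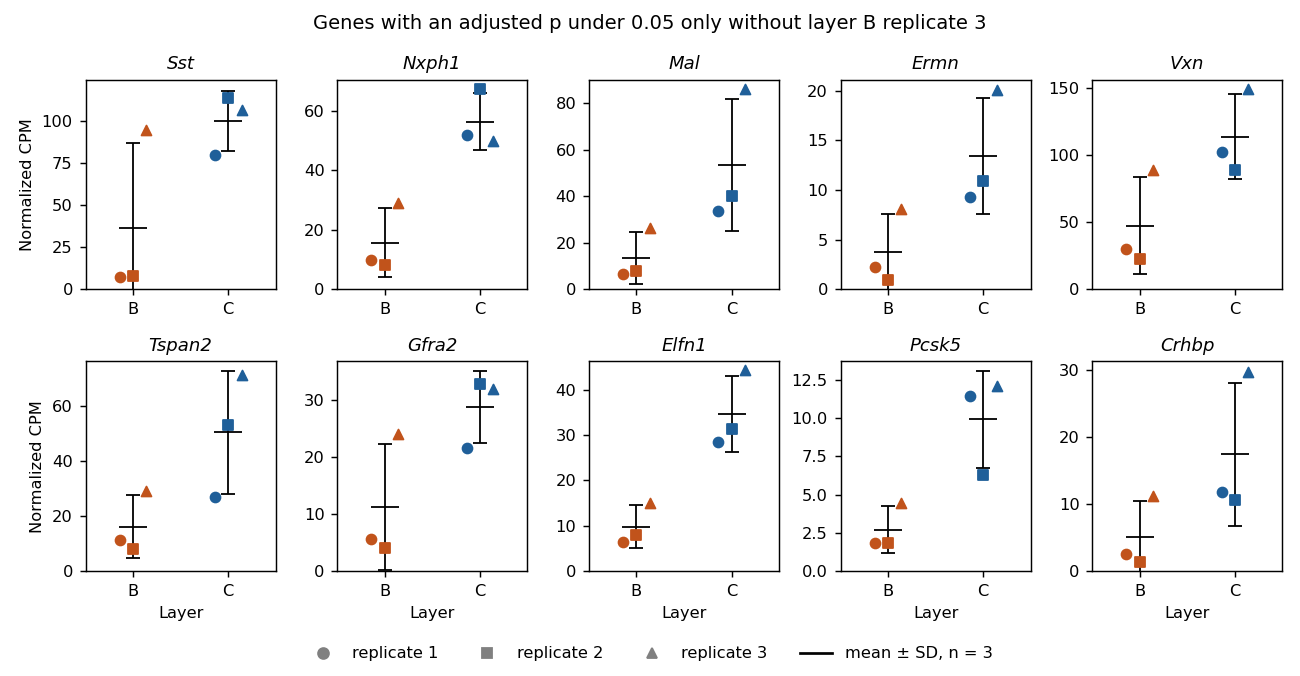
Normalized CPM of 10 genes higher in layer C with an adjusted p under 0.05 without layer B replicate 3 and above it with all samples, by layer. Symbols are replicates 1 to 3, bars give the mean ± SD (n = 3), and lower bars are cut at 0. The triangle of layer B lies above both its mates for every gene and inside the layer C range for Sst, Tspan2, Gfra2 and Crhbp.

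Each of the 6 samples was then placed on genes chosen without it, the 100 with the smallest p in each direction among those the other 5 samples separated. On this scale 0 is the layer C mean of the other samples and 1 the layer B mean. Layer B replicate 1 lay at a median of 0.82 on genes higher in layer B and 0.97 on genes higher in layer C, and replicate 2 at 0.64 and 0.78. Layer B replicate 3 lay at 0.33 and 0.27, and was nearer to its own layer for 38 and 29 of 100 genes. The layer C samples lay at 0.39 and 0.40, 0.34 and 0.34, and 0.55 and 0.22. On genes higher in layer B, the median of layer B replicate 3 (quartiles -0.26 and 0.66) was close to those of layer C replicates 1 and 2. Quartiles of these 2 samples were 0.19 and 0.60, and -0.09 and 0.8. On genes higher in layer C, layer B replicate 3 lay between the layer C medians. Each sample was placed on its own genes and reference means, so close medians do not rank the samples. In layer C, replicate 3 lay past the midpoint on genes higher in layer B.

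**Figure D5:**
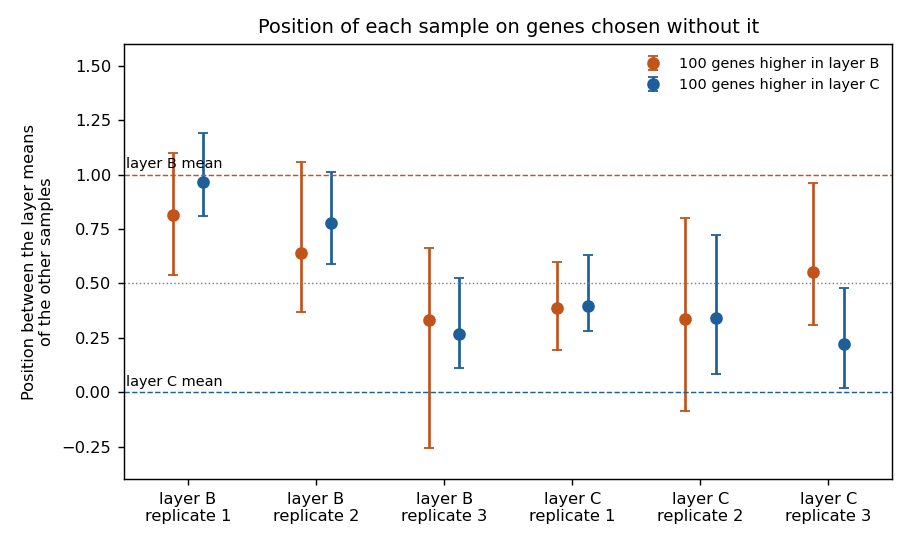
Median position of each sample between the layer means of the other samples (0 is layer C, 1 is layer B), over 100 genes in each direction chosen without it. Bars run from the lower to the upper quartile of genes. Layer B replicate 3 lies at 0.33 and 0.27, and its bars overlap those of every layer C sample. On genes higher in layer B its bar overlaps those of its mates too. Each sample has its own genes and reference means.

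Replicate 3 also differed from its mates in genes that did not separate the layers. Of the 15184 genes, 1800 were more than 2-fold above the mean of replicates 1 and 2 and 1453 more than 2-fold below it. The largest differences upwards were in mt-Nd6, mt-Nd2 and mt-Tm of the mitochondrial genome, Sst and Cdr1, at 3.39 to 4.34 on the log2 scale. The largest downwards were in Npcd, Fam219aos, Egr3, Lmtk3 and Adgrb2, at -3.96 to -3.08. Npcd shares its exons with Cbx6 and Nptxr, and Cdr1 and Fam219aos overlap genes on the other strand, so their counts are uncertain. Egr3, an immediate early transcription factor, had 22.0, 21.7 and 1.75 normalized CPM in layer B and 10.2, 3.94 and 10.5 in layer C. For this gene replicate 3 was the lowest of the 6 samples.

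Families chosen after their values were seen showed the same sample apart. Nuclear genes of respiratory complex I were above both mates in replicate 3 for 42 of 44, with a median log2 difference of 1.48 from the mates. Complex IV was above both for 13 of 13 (1.47), ATP synthase for 14 of 16 (1.61), and cytosolic ribosomal proteins for 41 of 59 (0.64). Over all genes tested, replicate 3 was above both mates for 6670 of 15184 (0.01). The summed level of complex I genes was 409, 394 and 1116 normalized CPM in layer B and 512, 406 and 698 in layer C, and no complex I gene separated the layers. Genes differed by transcript length too. The median log2 difference of replicate 3 from the mean of its mates was 0.36 in the quartile of shortest transcripts. In the quartile of the longest it was -0.31. With trends of length and GC content removed, an alternative chosen after seeing the data, 5 genes were called with all samples and 77 without replicate 3. The part of these features in the difference between replicate 3 and its mates was not tested.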

How the data were processed

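RNA of 3 layer B and 3 layer C samples was compared, and 3 layer A samples entered the fit to estimate the spread. The authors deposited raw counts per Ensembl transcript, without normalization. The submitters' processing notes name bcl2fastq 1.8.4, Bowtie, HTSeq 0.5.3 and mm10. How reads shared by transcripts were counted is not given in the sources used here. Of 95533 identifiers, 82807 (86.7%) matched GENCODE for GRCm38, and the rest entered no gene. Each gene was represented by its transcript with the highest mean CPM over 9 samples. Of 11143 genes with several transcripts, 5442 (48.8%) had a second within 10% of it, so isoforms were not separated. Genes reaching 10 counts in 3 or more samples were tested with edgeR 4.0.16 (TMM, quasi-likelihood F-test, Benjamini-Hochberg, threshold 0.05) in R 4.3.3, with limma 3.58.1 and DESeq2 1.42.0 as alternatives. The SE of a log2 fold change is its size over the root of F. Position plots and sample differences used log2(CPM + 0.5). The steps were tested on simulated data.

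Named genes were the 12 with the smallest p per direction without overlap, the 12 with the smallest adjusted p per direction without layer B replicate 3, up to 12 of a list of genes the study names (all 24 tested entered the alternatives), up to 4 per list, and 5 per direction that differed most in replicate 3. Genes, lists and comparison were chosen with earlier results of these data known. Lists share some genes. Reads were amplified and carry no molecular identifiers, so counts are not independent molecules.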

Additional observations from a re-analysis of the deposited data

How the results depend on the processing

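With all samples, the 4 called genes became 105 with no filter on low counts, 2 with at least 10 counts in all 9 samples, 90 by DESeq2, 990 by limma voom with sample quality weights, 0 with only the samples of layers B and C, 1 with counts summed by gene, 0 over every transcript and 884 at an unadjusted p under 0.05. Leaving out single samples gave 0 to 35. The 35 genes called without layer B replicate 3 became 403 with no filter, 363 by DESeq2, 1146 by limma voom, 91 with only layers B and C, 5 with counts summed by gene, 17 over every transcript, 77 with GC and length trends removed and 1518 unadjusted. Leaving out a further sample gave 0 (layer B replicate 1 or 2, which leaves 1 layer B sample, assumed to vary like the other layers) to 84 (layer A replicate 1). The 1631 of 15184 genes without overlap became 4844 of 56416 over every transcript, which is a lower share. As single samples were left out, the 1631 genes became 1631 to 4855. The cause of these shifts was not tested.

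Layers share replicate numbers in the labels. A paired fit with the replicate block called 5 genes, and 51 without layer B replicate 3. Deviations of same-numbered samples correlated at 0.19, 0.0904 and 0.215, and those of the other pairs ran from -0.213 to 0.149. Each layer C sample correlated best with the layer B sample of its number. Layer B replicate 2 correlated best with layer C replicate 1 (0.149). These values do not settle whether the numbers pair samples, and the main fit was left unpaired.

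Of 1065 alternative log2 fold changes of 54 named genes, 915 kept their direction and side of the threshold, 30 lost and 109 gained the call, and 11 changed sign. Those that changed sign belonged to 3 of the genes the study names. Zic1 gave 1.06 by limma voom and 0.10 with the replicate block, Btbd3 gave 0.05 with the block, 0.01 over every transcript and 0.08 with trends removed. With single samples left out, Zic1 ran from -0.80 to 2.04, Pvalb from -2.30 to 0.07 and Btbd3 from -0.29 to 0.24, and none of these values passed the adjusted threshold.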
